A study of Mus musculus with 11 samples.

Results

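The MYC, MAX and MXD network was examined at the transcript level in epithelium from the gingiva of langerin-DTR mice. Its 10 genes, Myc, Mycl, Mycn, Max, Mxd1, Mxd3, Mxd4, Mxi1, Mnt and Mga, were taken by name from the table of normalized read counts, and all 10 had values among the 19170 genes with values. All 11 mice express a diphtheria toxin (DT) receptor from the langerin promoter, so that DT kills langerin-expressing Langerhans cells (LCs), the antigen-presenting cells of stratified epithelia. A first group of 6 mice received DT and the control group of 5 mice received PBS, each at 17, 24 and 31 days of age, and tissue was taken from adults of 8 weeks. By then LCs had returned, according to the study, which used male mice and asked how loss of LCs around weaning shapes the adult gingiva. PBS mice received no toxin, so an effect of DT itself and an effect of LC loss cannot be told apart.

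MYC proteins are transcription factors that bind DNA only as heterodimers with MAX, at a motif called the E-box, and switch on genes of ribosome production, metabolism and cell division. The MXD proteins, MXI1 and MNT compete for MAX and recruit SIN3 repressor complexes to the same motif, and MGA is a further MAX partner that works in a Polycomb complex. In stratified epithelia MYC is known from the basal, growing layer and MXD1 from cells that leave the cell cycle to differentiate.

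Between 17509330 and 24325520 reads per mouse stood behind the values. The basal keratins Krt5 and Krt14, which define the epithelium, reached 80136 to 96899 and 176162 to 248769 normalized counts in the 11 mice. Langerin itself (Cd207) lay between 10.0 and 43.0 normalized counts in PBS mice and between 15.8 and 21.6 in DT mice, and its difference did not pass the test (limma adjusted p = 0.853). Since these are bulk samples, fewer cells of a type and less RNA per cell cannot be told apart.

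None of the 10 network genes passed the threshold in the comparison of DT with PBS mice (0 of 10 at an adjusted p under 0.1 by limma over 19170 genes, against 0.558% of all genes, 107 genes). An unadjusted p under 0.05 was reached by 2 of the 10 genes, Mycl and Mxd1, both higher after DT, beside 11.5% of all genes. With 10 genes this count is not read as a trait of the network. No member separated the groups without overlap (0 of 10, against 1.65% of all genes). The log2 fold change was positive for 4 of the 10 genes and its median was -0.051, beside -0.0105 over all genes tested. In the plot of fold changes the interval of Mycn, a gene at the limit of detection, is far wider than the others.

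**Figure D1:**
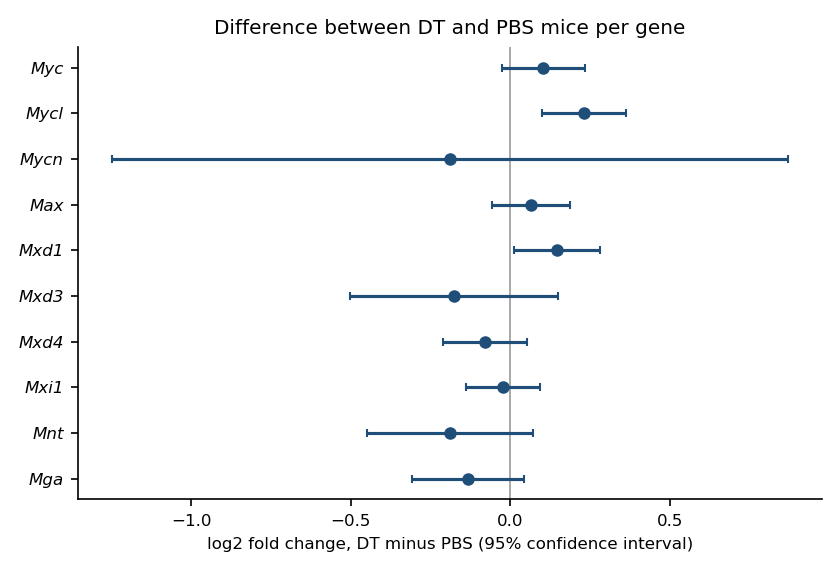
Log2 fold change of each network gene (x axis, DT minus PBS, limma on log2(normalized count + 1), 6 against 5 mice), with points for the estimates and bars for 95% confidence intervals not adjusted for the number of genes. The intervals of Mycl (0.10 to 0.36) and Mxd1 (0.0097 to 0.28) lie above 0, that of Mycn runs from -1.25 to 0.87, and no gene passed the adjusted threshold.

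Mycl (ENSMUSG00000028654) encodes L-MYC, a MYC family member that dendritic cells also use. It was measured in the PBS mice 1 to 5 at 1971, 1978, 2068, 2185 and 2057 normalized counts. In the DT mice 1 to 6 it was measured at 2165, 2257, 2508, 2284, 2785 and 2486 normalized counts. Among the DT mice 5 of 6 lay above the highest PBS mouse, and only DT 1 overlapped, with PBS 4. The means were 2052 ± 86.5 (SD, n = 5) and 2414 ± 226 (SD, n = 6), a log2 fold change of 0.23 (SE 0.062), or 17.3% with a 95% interval from 7.17% to 28.5%. By limma the unadjusted p was 0.00181, rank 201 of 19170 genes, and the adjusted p was 0.172, so that Mycl did not pass. The exact permutation test of this single gene, two-sided over the 462 splits of the mice, gave p = 0.00866, with no adjustment for the other genes. Without each mouse in turn, the log2 fold change of Mycl lay between 0.19 and 0.26 and the limma adjusted p between 0.114 and 0.359.

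Because Mycl is known from dendritic cells, markers found in LCs are given beside it. All 6 of them (Cd207, Cd74, H2-Ab1, H2-Aa, Itgax and Csf1r) had a negative log2 fold change, with a median of -0.45, and 0 of 6 passed the threshold. Of these genes only Cd207 encodes an LC-defining marker of the study. The study used MHC class II (H2-Ab1, H2-Aa) and CD11c (Itgax) for antigen-presenting cells in general. The summed level of the 6 genes was 1594 to 4180 normalized counts after PBS and 1078 to 2317 after DT. Cd74 alone averaged 1361 (PBS) and 919 (DT), so the sum reflects mainly genes other than Cd207. The fold changes of the 6 genes lay on the opposite side of 0 from that of Mycl. The 6 basal epithelial markers, which are far more abundant, summed to 296550 to 379970 normalized counts after PBS and 319110 to 364230 after DT. All 6 had a positive log2 fold change, the same side as Mycl, with a median of 0.09, and 0 of 6 passed. Without 1 mouse, between 3 and 6 of them were positive. The part of either list in the Mycl values was not tested.

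Myc (ENSMUSG00000022346) encodes c-MYC, the family member best known for driving cell growth. Its level was 2214, 2170, 2402, 2444 and 2138 normalized counts in the PBS mice 1 to 5. In the DT mice 1 to 6 it was 2454, 2328, 2443, 2146, 2566 and 2725 normalized counts. The groups overlapped, with 3 of 6 DT mice above all PBS mice and DT 4 near the lowest PBS mouse. Means of 2274 ± 140 (SD, n = 5) and 2444 ± 198 (SD, n = 6) gave a log2 fold change of 0.10 (SE 0.061), which did not pass (limma adjusted p = 0.550, exact permutation p = 0.149). The 95% interval of the difference ran from -1.91% to 17.5%.

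Mycn (ENSMUSG00000037169), the family member of embryonic and neural tissue, was close to absent, with 0 to 5 reads per mouse. It averaged 3.30 ± 1.60 (SD, n = 5) and 3.22 ± 2.22 (SD, n = 6) normalized counts. DT 4 had 0 reads, which at this depth still allows up to 3 reads, and no difference was detectable (log2 fold change -0.19, SE 0.50, limma adjusted p = 0.923). Without DT 4 the log2 fold change turned to 0.17.

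Max (ENSMUSG00000059436) encodes the shared partner of the MYC and MXD proteins. Levels ran from 1646 to 2071 normalized counts, median 1821, in the PBS mice, and from 1838 to 2049, median 1911, in the DT mice. All DT mice therefore lay within the PBS range. The means were 1844 ± 163 (SD, n = 5) and 1924 ± 75.3 (SD, n = 6), and the difference of 4.59% (95% interval -3.89% to 13.8%) did not pass (limma adjusted p = 0.716, exact permutation p = 0.288). Its log2 fold change of 0.065 became 0.025 without PBS 1 and 0.11 without PBS 3.

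**Figure D2:**
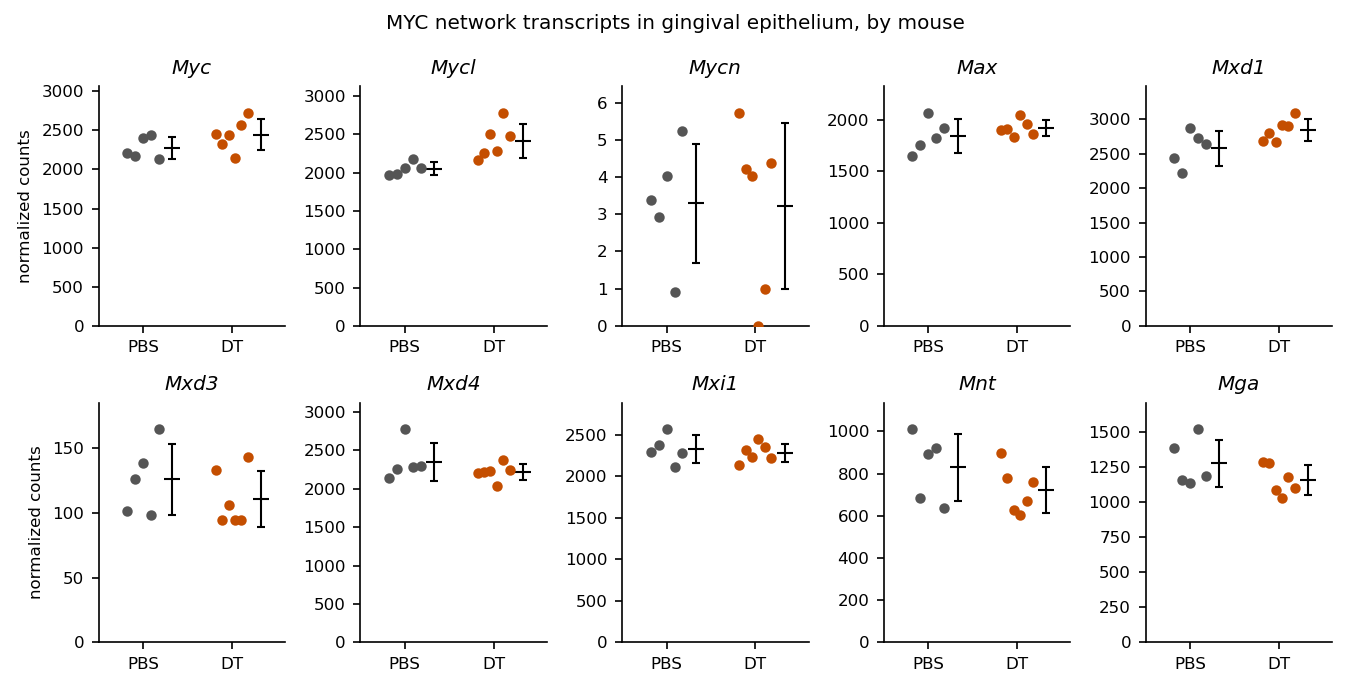
Normalized counts (y axes, from 0, a different scale for each gene) of the 10 network genes in the 5 PBS mice (gray) and 6 DT mice (orange), 1 point per mouse in the order of its number, with bars for the mean and SD of each group. For Mycl, 5 of 6 DT mice lie above the highest PBS mouse, and for Mxd1, 3 of 6, while Mxd4 shows PBS 3 apart at 2773.

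Among the antagonists, Mxd1 (ENSMUSG00000001156), which encodes the MXD protein of differentiating cells, was measured at 2438, 2227, 2867, 2727 and 2637 normalized counts in the PBS mice 1 to 5. The DT mice 1 to 6 had 2683, 2807, 2670, 2911, 2900 and 3096. All 6 DT mice exceeded the PBS mean and 3 of 6 exceeded the highest PBS mouse, so that the groups overlapped. With means of 2579 ± 251 (SD, n = 5) and 2845 ± 160 (SD, n = 6), the log2 fold change was 0.14 (SE 0.064), or 10.6% with a 95% interval from 0.674% to 21.4%. Mxd1 did not pass after adjustment (limma unadjusted p = 0.0373, adjusted p = 0.395, exact permutation p = 0.0649), and its unadjusted p stayed under 0.05 in 5 of 11 fits with a mouse left out. Without PBS 2 its log2 fold change was 0.093.

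The other MXD antagonists had fold changes on the other side of 0, and none passed. Mxd4 (ENSMUSG00000037235) spanned 2143 to 2773 normalized counts in PBS mice and 2034 to 2373 in DT mice, with a log2 fold change of -0.079 (SE 0.062, limma adjusted p = 0.671). Its highest value belonged to PBS 3, which stood apart from the other PBS mice, and without PBS 3 the log2 fold change of Mxd4 was -0.018. Mxi1 (ENSMUSG00000025025) spanned 2107 to 2568 in PBS mice and 2140 to 2449 in DT mice, with a log2 fold change of -0.023 (SE 0.055, limma adjusted p = 0.913) that became 0.014 without PBS 3. Mxd3 (ENSMUSG00000021485), the family member known from dividing cells, was scarce, at 98.3 to 165 normalized counts after PBS and 94.2 to 144 after DT. Its log2 fold change was -0.18 (SE 0.15, limma adjusted p = 0.704), and -0.075 without PBS 5.

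Mnt (ENSMUSG00000000282), the broadly expressed antagonist, had 1010, 686, 891, 920 and 638 normalized counts in the PBS mice 1 to 5, and 896, 781, 630, 602, 669 and 758 in the DT mice 1 to 6. Mga (ENSMUSG00000033943) had 1388, 1157, 1136, 1521 and 1187 normalized counts in the PBS mice, and 1286, 1282, 1088, 1026, 1182 and 1103 in the DT mice. PBS 1 and PBS 4 were the highest mice for both genes, DT 1 was the highest DT mouse for both, and DT 4 the lowest mouse for both. The log2 fold changes were -0.19 (SE 0.12) for Mnt and -0.13 (SE 0.083) for Mga, and neither passed (limma adjusted p = 0.584 and 0.570). Without PBS 1 that of Mnt was -0.11, and without PBS 4 that of Mga was -0.068. Without PBS 5 that of Mnt was -0.28, with an unadjusted limma p of 0.0261.

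Members also differed in how much they varied between mice of the same group. The coefficient of variation within groups was 17.2% for Mnt, and only 4.28% of the genes within 2-fold of its mean level varied more. It was 11.2% for Mga (14.5% of such genes varied more) and 20.7% for Mxd3. Myc, Mycl, Max, Mxd1, Mxd4 and Mxi1 lay between 6.02% and 7.85%, and between 34.3% and 56.8% of the genes of their level varied more.

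Levels of different genes were compared as normalized counts per kb of exon, which takes reads as spread along the whole transcript. The length was the union of all annotated exons of a gene, which can exceed that of the transcript expressed. It was 2717 bases for Myc, 6823 for Mxi1, 7072 for Mxd1 and 8483 for Mxd4, so the order per kb depends on it. If reads came from transcript ends only, the counts without division by length would apply, and on those Mxd1 is highest (2579 and 2845 normalized counts, PBS and DT) and Myc (2274 and 2444) lies below Mxd4 and Mxi1 in PBS mice. Per kb, Myc was the most abundant member, with 837 ± 51.4 per kb in PBS mice (SD, n = 5) and 899 ± 72.9 per kb in DT mice (SD, n = 6). Next came Max (513 and 535 per kb, PBS and DT) and Mycl (508 and 598 per kb), which did not differ beyond their spread after PBS. Mxd1 (365 and 402 per kb) and Mxi1 (341 and 335 per kb) were the most abundant antagonists, within their spread of each other after PBS, followed by Mxd4 (277 and 261 per kb) and Mnt (179 and 156 per kb). Mga (83.3 and 75.7 per kb), Mxd3 (53.2 and 46.8 per kb) and Mycn (1.00 and 0.978 per kb) were lowest.

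**Figure D3:**
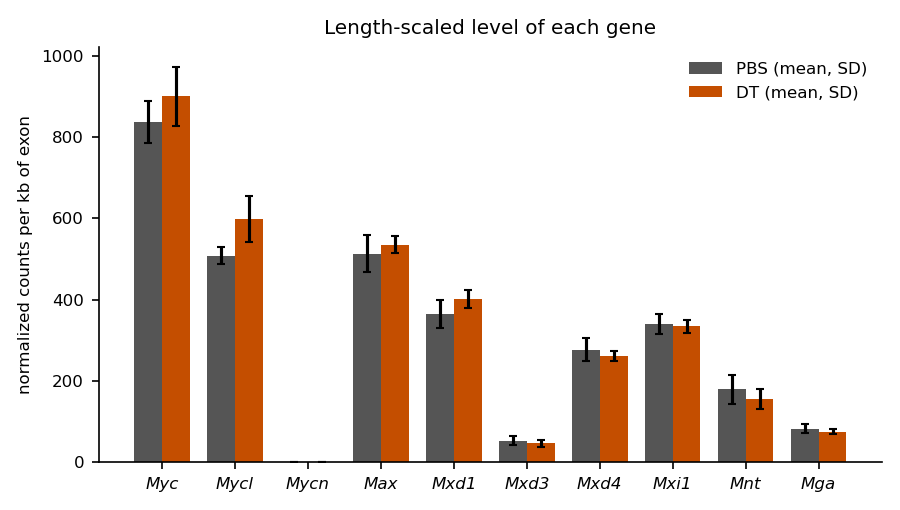
Normalized counts per kb of exon (y axis, from 0) of each network gene in PBS mice (gray, n = 5) and DT mice (orange, n = 6), bars for means and lines for the SD. Myc is highest at 837 and 899, Max and Mycl follow, and Mycn is near 0 in both groups.

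Summed per kb, the MYC family (Myc, Mycl and Mycn) stood against the antagonists (Mxd1, Mxd3, Mxd4, Mxi1 and Mnt) in a ratio of 1.09, 1.14, 1.03, 1.20 and 1.10 in the PBS mice 1 to 5. In the DT mice 1 to 6 the ratio was 1.20, 1.17, 1.33, 1.15, 1.34 and 1.29. The ratio depends on the division by length, since from normalized counts alone it lay under 1 in every mouse, between 0.484 and 0.569 after PBS and between 0.548 and 0.638 after DT. On both scales DT 3, DT 5 and DT 6 were the highest, and the other 3 DT mice lay near the upper PBS mice. Mycl made up 36.7% to 39.2% of the family's transcripts after PBS and 37.2% to 42.2% after DT, with Myc as nearly all of the rest. These sums are described only and were not tested.

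The E-box to which MAX dimers bind was looked for in the promoters of the members themselves. RefSeq windows (GRCm38.p6) from 250 bases before to 50 bases after a transcription start were given for 9 of the 10 genes, all but Myc. The letters CACGTG, which read the same on both strands, were found for 3 of the 9 genes, Max, Mxd4 and Mnt, in 3 of their 11 windows, against 7.15% of all 32851 windows and 9.06% of windows of genes with values. They are shown with 12 bases on each side, 5′ to 3′ on the strand of the gene and with the E-box in capitals.
Max: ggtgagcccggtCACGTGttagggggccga
Mxd4: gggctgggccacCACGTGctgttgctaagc
Mnt: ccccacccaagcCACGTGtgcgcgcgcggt
The stretch of Max is chr12:76962234-76962263 on the minus strand, and its E-box begins 3 bases before the start. That of Mxd4 is chr5:34187912-34187941 on the minus strand, 219 bases before the start, and that of Mnt is chr11:74830789-74830818 on the plus strand, 123 bases before it. Max, Mxd4 and Mnt were not among the members with an unadjusted p under 0.05. Binding was not measured, so these are matches of letters only.

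The genes that surround the network were described by list, and the plot of fold changes by list shows them beside the members. The lists were chosen with earlier results of these data known, so their counts are a description. In the parallel MLX arm, which uses MLX in place of MAX, 0 of 5 genes passed, and Mlxip, which encodes a glucose-sensing partner of MLX, had a log2 fold change of -0.21 (SE 0.063, limma adjusted p = 0.215). Among 19 chromatin cofactors of MYC and MXD proteins 0 passed, and the smallest unadjusted p belonged to Wdr5, which encodes a MYC-binding chromatin scaffold (log2 fold change 0.22, SE 0.064, limma adjusted p = 0.213), and Ep400, which encodes a remodeling ATPase (-0.27, SE 0.081, limma adjusted p = 0.215). Among 17 regulators of MYC protein stability 0 passed, and without PBS 3, 1 passed in the lower direction. Huwe1, a ubiquitin ligase with MYC among its substrates, had a log2 fold change of -0.26 (SE 0.069, limma adjusted p = 0.160).

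Of 9 regulators of Myc mRNA 1 passed, in the lower direction. Hnrnpd, which encodes the AU-rich element binding protein AUF1, fell. Its mean was 1817 ± 129 normalized counts in PBS mice (SD, n = 5) and 1419 ± 181 in DT mice (SD, n = 6) (log2 fold change -0.36, SE 0.080, limma adjusted p = 0.0782). The PBS mice 1 to 5 had 1698, 1973, 1758, 1717 and 1939 normalized counts of Hnrnpd, and the DT mice 1 to 6 had 1445, 1352, 1685, 1556, 1192 and 1286. All DT mice lay below all PBS mice, although DT 3 came close to PBS 1. The call of Hnrnpd was made in 3 of the 11 fits without a mouse, namely those without PBS 4, PBS 5 or DT 3, and was lost without any of PBS 1, PBS 2, PBS 3, DT 1, DT 2, DT 4, DT 5 or DT 6, with a log2 fold change between -0.41 and -0.31.

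Of 30 genes commonly listed as induced by MYC, 0 passed. The log2 fold change was positive for 25 of 30, with a median of 0.058, beside 47.3% positive and a median of -0.0105 over all genes, and 21 of 30 were positive, with a median of 0.027, after quantile normalization. Slc7a5, which encodes an amino acid transporter, had 2629 ± 569 normalized counts in PBS mice (SD, n = 5) and 3421 ± 286 in DT mice (SD, n = 6), and its log2 difference of 0.40 (SE 0.11) did not pass (limma adjusted p = 0.192). Without PBS 4, 19 of 30 were positive, with a median of 0.033, and Slc7a5 passed (log2 fold change 0.51). Of these 30 genes 25 had promoter windows, and the windows of 7 held the E-box.

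Of 12 genes commonly listed as repressed by MYC, 2 rose and 0 fell, with a median log2 fold change of 0.059 (6 of 12 positive after quantile normalization, 8 of 12 as deposited). The risers were the stress-induced growth arrest genes Gadd45a (0.58, SE 0.071, limma adjusted p = 0.00477) and Gadd45g (1.27, SE 0.22, limma adjusted p = 0.0302), which answer to other factors as well. Both kept their call in all 11 fits without a mouse, and lost it in a fit with a term for the library number, where 0 genes passed.

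Of 12 proliferation genes 0 passed, and the log2 fold change was negative for all 12, with a median of -0.15, beside 47.3% positive over all genes. It was negative for all 12 under the deposited scaling, TMM and quantile normalization alike. Genes of the cell cycle vary together, so the 12 are not independent. Without PBS 1, PBS 3 or PBS 5 the log2 fold change was negative for all but 1 gene, and without PBS 3, 1 gene passed in the lower direction. Mki67, the common marker of cycling cells, averaged 4161 ± 441 (SD, n = 5) and 3360 ± 394 (SD, n = 6) normalized counts (log2 fold change -0.31, SE 0.084, limma adjusted p = 0.180). Of 15 late differentiation genes 0 passed, and their median log2 fold change was 0.00066, between -0.028 and 0.044 without 1 mouse.

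**Figure D4:**
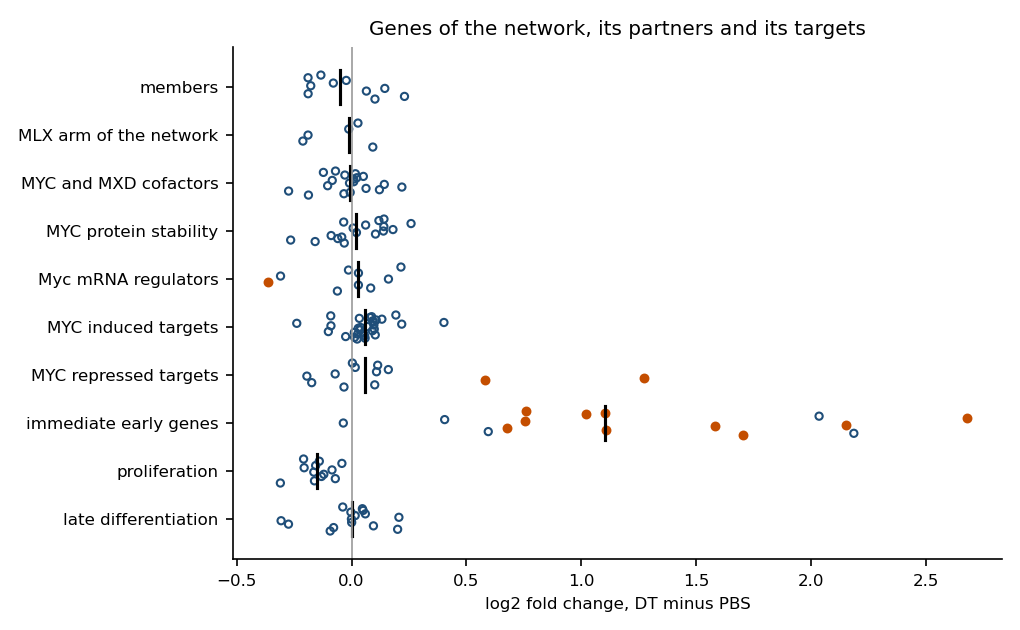
Log2 fold change (x axis, DT minus PBS) of every gene in the network and in 9 surrounding lists (rows), with open points for genes that did not pass the limma threshold, filled orange points for those that did, and black lines for medians. The network genes lie between -0.19 and 0.23, and the calls are 1 regulator of Myc mRNA, 2 MYC repressed targets and 10 immediate early genes.

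Myc is itself counted among the immediate early genes, which cells switch on within minutes of a stimulus. Of 15 other immediate early genes 10 rose, 14 had a positive log2 fold change and the median was 1.10. Myc, at 0.10, did not pass. Egr1 lost its call without PBS 2, DT 5 or DT 6, and Egr2 without PBS 1, PBS 2, DT 1, DT 5 or DT 6. The score of the 15 genes, the mean of their centred log2 levels, was -0.65, -0.92, -0.78, 0.21 and -1.28 in the PBS mice 1 to 5 and lay between 0.25 and 1.11 in the DT mice. PBS 4 thus stood far above the other PBS mice and just below the DT mice.

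Relations between a member and a list score were computed for 4 pairs across the 11 mice. Their members and lists were chosen with earlier results of these data known, and the p-values do not account for that choice. Myc varied together with the immediate early score (Pearson r = 0.741, permutation p = 0.0103, Benjamini-Hochberg adjusted over 4 pairs 0.0412, Spearman rho = 0.791, permutation p = 0.00526, adjusted 0.0210). On deviations from the group means, which removes the difference between DT and PBS, r was 0.730 (exact permutation p = 0.00301, adjusted 0.0120). Within the 6 DT mice alone r was 0.824 (exact permutation p = 0.0458, adjusted 0.183). No correlation is given for the 5 PBS mice alone, since groups under 6 mice were not correlated. Without PBS 2 and PBS 5, the mice farthest from the median score, r was 0.579 (exact permutation p = 0.101, adjusted 0.404), so that the call was lost. It was also lost without any of PBS 4, PBS 5, DT 2, DT 3, DT 5 or DT 6 (adjusted p of up to 0.133), while r stayed between 0.646 and 0.896.

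Myc was not found related to the score of its 30 induced targets (r = 0.212, permutation p = 0.538, adjusted 0.538, rho = 0.336, permutation p = 0.312, adjusted 0.416). On deviations from the group means this r was -0.0979, and without DT 1 and DT 5, the mice farthest from the median, it was -0.111. Mxd1 was not found related to the late differentiation score (r = 0.269, permutation p = 0.430, adjusted 0.538, rho = 0.10, permutation p = 0.776, adjusted 0.776), and r was 0.212 without PBS 3 and DT 1.

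Mxd3 followed the proliferation score in the pooled mice (r = 0.696, permutation p = 0.0221, adjusted 0.0442), and Spearman's rho of 0.655 did not pass (permutation p = 0.0327, adjusted 0.0654). On deviations from the group means r was 0.651 (exact permutation p = 0.0513, adjusted 0.103). Without PBS 3 and PBS 5, the mice farthest from the median score, it was 0.456 (exact permutation p = 0.206, adjusted 0.412) and did not pass. The adjusted p passed without PBS 1, PBS 2 or DT 1 and was lost without any of the other 8 mice.

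**Figure D5:**
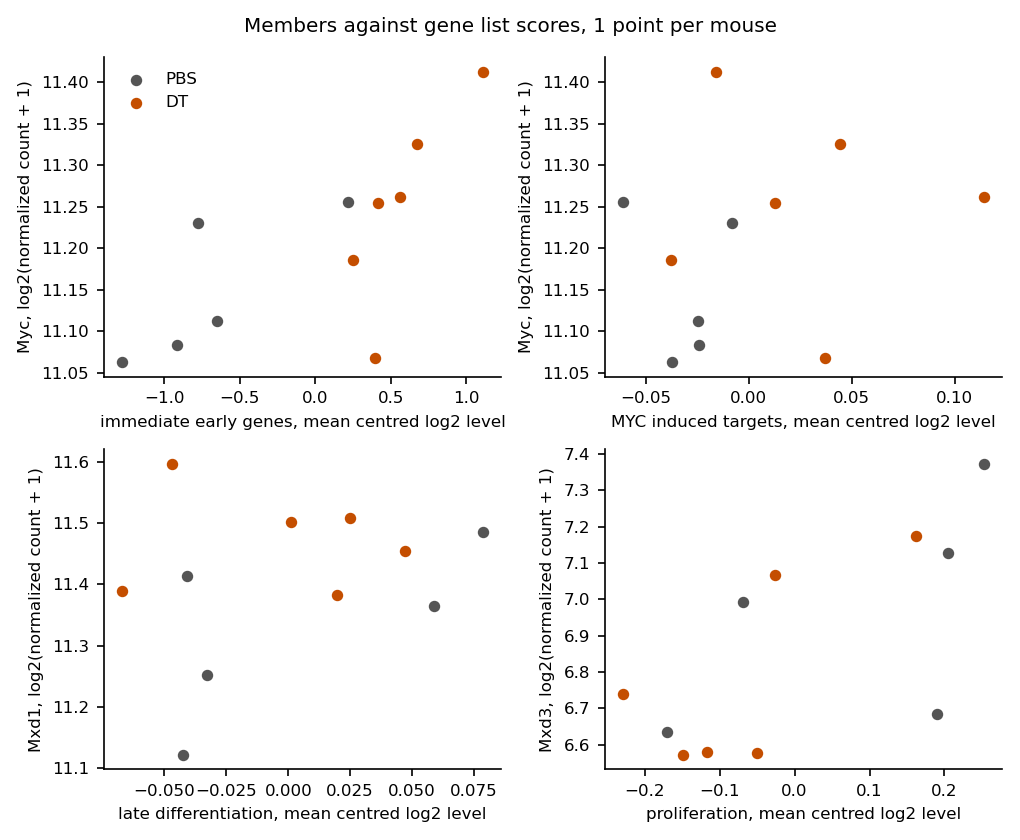
Log2(normalized count + 1) of a network gene (y axes) against the score of a gene list, the mean centred log2 level (x axes), 1 point per mouse, PBS gray and DT orange. Myc tracks the immediate early score (r = 0.741), with DT 4 low for its score, and Mxd3 the proliferation score (r = 0.696), while the other 2 pairs show no clear trend.

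The genes most like Myc across the 11 mice, out of the 13477 genes whose mean reached 10 normalized counts, were Eef2k (Pearson r = 0.925), which encodes a kinase of elongation factor 2, Usp47 (0.900), which encodes a deubiquitinase, and Cul3 (0.884), which encodes a cullin scaffold of ubiquitin ligases. These are the highest of 13477 values over the same libraries and are a description only. None of the 3 passed between DT and PBS, with limma adjusted p of 0.395 for Eef2k, 0.699 for Usp47 and 0.528 for Cul3.

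Markers of other cells were low beside the basal markers. T cell markers summed to 415 to 529 normalized counts after PBS and 395 to 510 after DT, and 1 of the 5 with values had a mean over 10. Fibroblast markers summed to 1252 to 1450 and 1109 to 1594, endothelial markers to 73.4 to 112 and 60.4 to 139, and skeletal muscle markers to 49.2 to 103 and 53.0 to 85.9. Neutrophil markers summed to 698 to 3397 and 681 to 3721, and salivary markers to 1.01 to 41.0 and 2.02 to 10.8. The T cell, fibroblast and neutrophil sums were uneven over their genes, so they do not measure amounts of these cells. Cd3g, a T cell marker, averaged 9.50 after PBS and 6.84 after DT, and Col1a1, a fibroblast marker, 69.5 and 45.3. Among neutrophil markers, S100a9 spanned 405 to 1995 after PBS and 351 to 1983 after DT, and Cxcr2 43.7 to 81.8 and 39.0 to 78.4. No gene of these 6 lists passed, and their part in the members' values was not tested.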

How the data were processed

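Epithelium from the gingiva of 11 langerin-DTR mice was sequenced from poly-A selected stranded libraries. Each value that the authors deposited is a normalized count per gene and mouse: the authors trimmed reads, aligned them with TopHat2 2.1.1, counted them with HTSeq 2.01 and divided the counts by DESeq2 1.36.0 size factors, as named in the submitters' processing notes. The build is given as GRCm39 in those notes and as GRCm38 in the paper, so the files' gene models are given without coordinates, and the promoter stretches carry those of RefSeq windows on GRCm38.p6. The paper's text for trimming follows a 3′ tag protocol while the labels name a whole-mRNA kit, which bears on levels per kb. The deposited table lists 55414 genes, 36244 of them without a value, and lower genes are measured with larger counting error. In each mouse 100% of the values worth up to 100 reads lay within 0.1 of a whole number of reads, which gave the depth. This step was estimated from the values, so reads per mouse and per gene are estimates.

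Groups came from the labels, and mice were taken as replicates. DT was compared with PBS with limma 3.58.1 (R 4.3.3, intensity trend, no covariate, all 11 mice) on log2(normalized count + 1), so fold changes of low genes are understated, and p-values of all 19170 genes were adjusted by Benjamini-Hochberg, with calls made under 0.1. Single genes were tested with the two-sided exact permutation test over 462 splits (smallest p 0.00216), and correlations with 100000 permutations, or exactly for fewer than 10 mice or within groups (scipy 1.17.1), at an adjusted threshold of 0.05. Exon lengths were unions from GENCODE release M21. The members and lists were chosen with earlier results of these data known. Named genes were the members, each list gene past the threshold or otherwise the 2 of smallest p, not all of which are printed, and the 3 genes most like Myc. Alternatives were pseudocounts of 0.5 and 4, a minimum mean of 10, TMM, quantile normalization, array weights, a replicate block, and leaving out each mouse. On simulated data for this comparison the procedure was tested before use, with planted changes larger than any log2 fold change of the members. Differences as small as those of the members were not simulated. The replicate numbers of the labels were checked for pairing and not used as pairs.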

Additional observations from a re-analysis of the deposited data

Results flagged for a closer look

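A mouse stood apart from its own group in 3 of 88 groups of values checked, by the gap to its nearest neighbour relative to the group's range (Dixon's test), which by chance marks about 1 group in 20. Mxd4 was highest in PBS 3, at 2773.01 normalized counts, beside 2143 to 2295 in the other PBS mice. Mlx, the partner protein of the parallel arm, was lowest in DT 1, at 751.926 normalized counts. Atf3, an immediate early gene, was highest among the PBS mice in PBS 4, at 731.251 normalized counts.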

How the results depend on the processing

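No network gene passed the threshold in any of the 19 alternative fits. The directions held in all of them except for Mxi1 (log2 fold change 0.014 without PBS 3, and between -0.057 and 0.014 without 1 mouse) and Mycn (0.17 without DT 4, and between -0.46 and 0.17 without 1 mouse). Of all genes, 107 passed as reported, 189 with array weights, and between 27 (without DT 5) and 259 (without PBS 5) when a mouse was left out. Between PBS and DT mice of the same title number, 1 to 5, the correlations of deviations were 0.0879, 0.172, -0.233, -0.209 and 0.324. These values were not tested and cannot exclude pairing. PBS 5 carries a different library number, and its match by that number was not checked. A replicate block by the number in the title, which in effect drops DT 6, gave 35 genes. A replicate block by library number, which in effect drops DT 5, gave 0 genes by limma, with 1404 at an unadjusted p under 0.05. The calls of Hnrnpd, Gadd45a, Gadd45g and the immediate early genes were therefore lost with it. The adjusted p of Mycl was 0.383 and 0.570 under the 2 blocks and 0.112 with array weights.

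For Myc with immediate early genes r was 0.579 without the 2 farthest mice, 0.646 to 0.896 without 1 mouse, and 0.824 (rho 0.943) in DT mice alone. For Myc with its induced targets r was -0.0979 on deviations, -0.111 without the 2 farthest mice, -0.0765 in DT mice alone and 0.120 to 0.351 without 1 mouse. For Mxd1 with late differentiation r was -0.108 (rho -0.0286) in DT mice alone and 0.0933 to 0.506 without 1 mouse. For Mxd3 with proliferation rho was 0.655, r was 0.651 on deviations (rho 0.60), 0.456 without the 2 farthest mice, 0.675 with medians, 0.733 (rho 0.60) in DT mice alone and 0.579 to 0.849 without 1 mouse. The values on deviations by rho and in DT mice alone were added after seeing the data. The causes were not tested. Tests on recovered reads with edgeR or DESeq2 were planned and not run, although reads could be estimated from the values. The values were treated as normalized throughout. Mycn had too few reads to show a change.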
